A study of Mus musculus with 8 samples.

Results

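The genes described here encode proteins of the basement membrane: the laminin chains Lama2, Lama4, Lama5, Lamb1, Lamb2 and Lamc1, the nidogens Nid1 and Nid2, and the heparan sulfate proteoglycans perlecan (Hspg2) and agrin (Agrn). They were picked by symbol with a rule that uses no measured value, though earlier results of these data were known when they were chosen. All 10 of the 10 symbols were found among the 19301 genes of the expression table. The data were the mRNA of primary mouse tendon stem cells (TSCs), the cells that grow out of collagenase-digested patellar tendon, sequenced as bulk libraries with a strand-specific kit. Of the 8 libraries, 4 came from TSCs kept in high fat, high glucose medium (HFHG, raised glucose with 300 µM palmitic acid) and 4 from TSCs kept in low glucose medium (LG, 5.5 mM glucose with DMSO and no added palmitic acid), both for 4 days. HFHG served in the study as a culture model of the sugar and lipid load of diabetes. The mice of the study were C57BL/6J, the age of the TSC donors is not given in the sources used here, and the 2 groups shared the cell type and, as far as the labels say, carried no genetic change. Glucose and palmitic acid were changed together, so their parts cannot be told apart. The study calls the libraries of a group biological replicates, and whether they came from separate animals or separate cultures of the same cells is not given in the sources used here, so the p-values measure the spread between these libraries.

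A basement membrane is a thin sheet of matrix laid against the surface of cells. Each laminin is a trimer of an alpha, a beta and a gamma chain, and laminins polymerise on the cell surface while type IV collagen forms a network of its own. Nidogens bind the gamma chain of laminin and type IV collagen, perlecan ties the networks together through its heparan sulfate chains, and agrin links laminin to dystroglycan on the cell. In tendon, such sheets are known around vessels and nerves and at the tendon surface and the junction with muscle.

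In HFHG, 4 of the 10 genes rose (Nid2, Lamb2, Hspg2 and Agrn), 3 fell (Lama2, Lama4 and Lamb1), and 3 did not pass the test (Nid1, Lama5 and Lamc1). The test was limma on log2(FPKM + 0.1) over the 11710 genes that reached 0.5 FPKM in 4 or more libraries, where FPKM is the read count normalised to the length of the gene and to the reads of the library, and a gene was called at a Benjamini-Hochberg adjusted p below 0.05. Over all genes tested, 34% were called higher in HFHG and 30.8% lower, so that the counts among the basement membrane genes were near those of genes at large. The FPKM of the groups did not overlap for 7 of the 10 genes, against 59.2% of all genes tested. One gene of the 10, Nid2, passed the threshold of the study, a log2 fold change beyond 1 in either direction with an unadjusted p below 0.05, against 5.33% of all genes tested. The median log2 fold change was 0.14 over the 10 genes and 0.017 over all genes tested, and the median size of the change without its sign was 0.31 and 0.25. The largest change among the 10 was that of Nid2, 2.40 on the log2 scale, and the change in the other called genes lay between 0.27 and 0.67 in size.

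The libraries held between 34308108 and 37362725 reads, and a basement membrane gene had between 89 and 45546 reads in a library. The 10 genes together took 0.385% ± 0.0113 of the reads in HFHG and 0.358% ± 0.0179 in LG (SD, n = 4 each). All 9 tendon markers examined passed the filter, with a summed level of 1903 to 1955 FPKM in HFHG and 1021 to 1047 FPKM in LG. Most of the sum came from Col1a1, Col1a2, Thbs4 and Tnc. Of the 9, 7 were called higher and 2, Mkx and Egr1, lower. Scx (2.27 against 1.45 FPKM, with overlapping groups) and Tnmd (1.10 against 0.614 FPKM) were among those higher in HFHG. By qPCR the study reports both as decreased in HFHG medium. Of 7 endothelial markers, Pecam1, Cdh5, Kdr, Emcn, Tie1 and Cldn5 were under 0.5 FPKM in every library, and Tek, at 0.685 to 0.916 FPKM in HFHG and 0.505 to 0.600 FPKM in LG, was called higher (log2 fold change 0.47, limma adjusted p = 0.00576). The list summed to 1.28 to 1.43 FPKM in HFHG and 0.974 to 1.18 FPKM in LG. The epithelial markers Epcam, Krt5, Krt14, Krt8, Krt18 and Cdh1 were under 0.5 FPKM in every library. Macrophage markers were present at 7 of 7, Lyz2, Adgre1 and Cd68 among them. Their summed level was 1708.5 to 1759 FPKM in HFHG and 1869 to 1950.2 FPKM in LG, most of it Lyz2. In HFHG 6 of the 7 were called lower, with log2 fold changes from -0.97 (C1qa) to -0.11 (Lyz2). The mural cell markers Notch3 and Cspg4 passed the filter and were called higher, the list summing to 10.8 to 12.0 FPKM in HFHG and 5.80 to 6.70 FPKM in LG, while Rgs5, Kcnj8, Abcc9 and Myh11 stayed under 0.5 FPKM. Of the muscle markers, Acta1 alone of the 6 in the table passed the filter and was called lower, at 0.904 FPKM in HFHG and 3.38 FPKM in LG on average, while Pax7, Myod1, Des, Myh3 and Ckm were under 0.5 FPKM in every library with overlapping groups. The muscle list summed to 0.759 to 1.94 FPKM in HFHG and 3.54 to 4.36 FPKM in LG, most of it Acta1. Schwann cell markers summed to 80.1 to 82.9 FPKM in HFHG and 71.8 to 73.1 FPKM in LG, and 3 of 6 passed the filter, of which 2 were called higher. In bulk libraries, fewer cells of a type and less RNA per cell cannot be told apart, and the part of macrophage, endothelial, mural, Schwann or muscle cells in the changes given here was not tested. The fourth LG library stood apart from the other 3 on the second principal component, which held 4.18% of the variance against 81.0% on the first. Of the LG libraries it was also the lowest for Lama2, Lama4, Lama5, Lamb1, Lamc1, Nid1 and Hspg2, and leaving it out changed no call among the 10 genes.

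**Figure D1:**
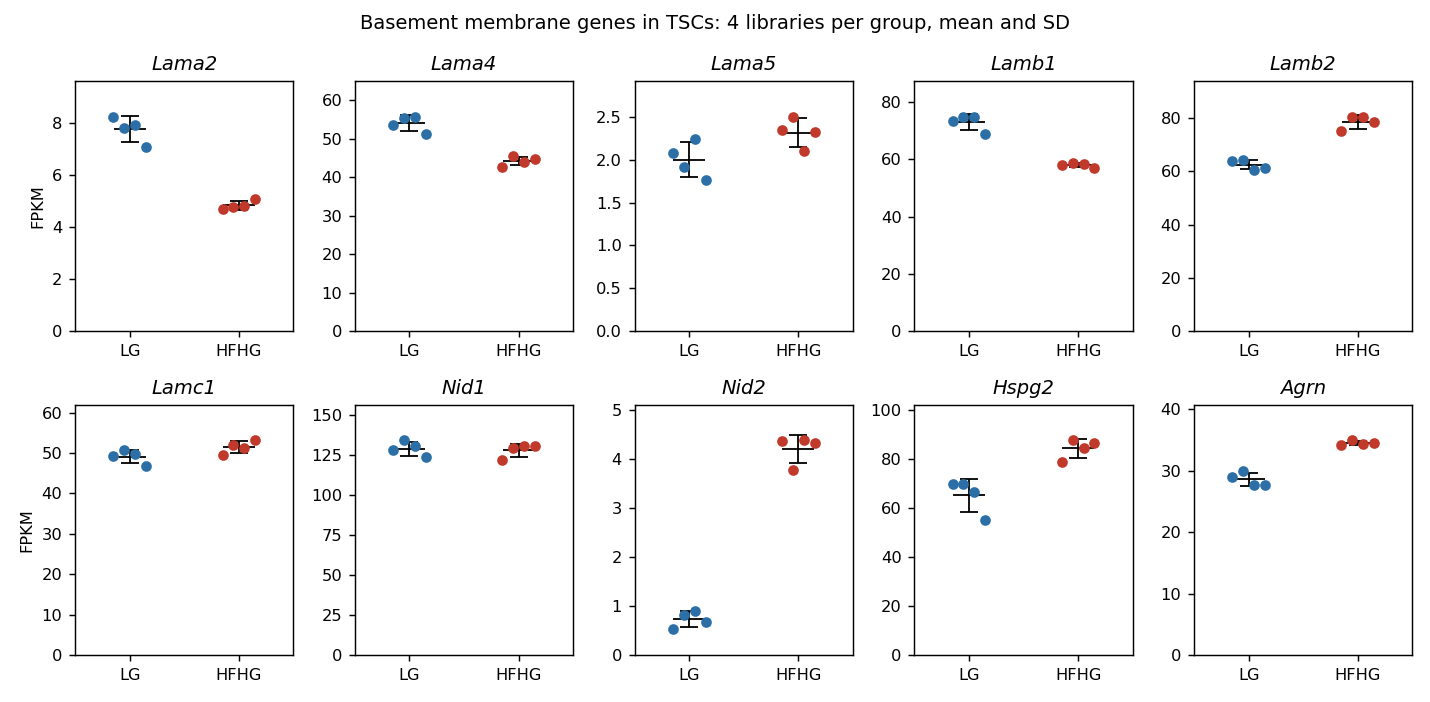
FPKM of the 10 basement membrane genes (vertical axes, each from 0) in the 4 LG (blue) and 4 HFHG (red) libraries, with 1 point per library and the mean and SD in black. The groups are clear of each other for 7 genes, most widely for Nid2 (0.531 to 0.901 against 3.79 to 4.39 FPKM), and overlap for Nid1, Lama5 and Lamc1.

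The alpha chain decides which receptors a laminin engages, and Lama4, the alpha chain best known from vessel walls and adipose tissue, was the most abundant alpha chain. Lama4 (NCBI gene 16775, chromosome 10, 38965515 to 39110188 on the plus strand of GRCm38, with 38 exons in its longest coding transcript) stood at 42.8, 45.4, 43.9 and 44.7 FPKM in HFHG and at 53.5, 55.5, 55.7 and 51.3 FPKM in LG. Each HFHG library was below each LG library. The mean fell from 54.0 ± 2.05 to 44.2 ± 1.14 FPKM (SD, n = 4 each), and the log2 fold change was -0.29 (SE 0.0334, limma adjusted p = 7.47e-06).

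Lama2, the alpha chain of muscle and peripheral nerve basement membranes, fell further. Lama2 (NCBI gene 16773, chromosome 10, 26980036 to 27619758 on the minus strand, 65 exons) was at 4.69, 4.76, 4.78 and 5.05 FPKM in HFHG and at 8.22, 7.80, 7.91 and 7.05 FPKM in LG. The LG libraries were all above the HFHG libraries, the fourth being the lowest of its group. The mean was 4.82 ± 0.159 FPKM in HFHG and 7.75 ± 0.496 FPKM in LG (SD, n = 4 each), 1.61 times higher in LG, and the log2 fold change was -0.67 (SE 0.0578, limma adjusted p = 4.58e-07).

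Lama5, the broadly expressed alpha chain of epithelial and vascular basement membranes, was the scarcest of the 3, with 756 to 1066 reads in a library. Lama5 (NCBI gene 16776, chromosome 2, 180176373 to 180225859 on the minus strand, 79 exons) was at 2.35, 2.50, 2.1 and 2.32 FPKM in HFHG and at 2.08, 1.92, 2.24 and 1.76 FPKM in LG. The third LG library lay above the third HFHG library, so the groups overlapped. The log2 fold change of 0.21 (95% interval 0.0081 to 0.40) did not pass the test (limma adjusted p = 0.0638). Leaving out the third HFHG library (adjusted p = 0.0426) or the third LG library (adjusted p = 0.0315) brought it past the threshold. Of the macrophage markers, 6 of 7 were lower in HFHG together with Lama2 and Lama4, by the summed levels given above, and of the muscle markers Acta1 was.

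The beta chains moved in opposite directions. Lamb1 (NCBI gene 16777, chromosome 12, 31265234 to 31329644 on the plus strand, 33 exons), the widespread beta chain of developing tissues, was at 57.9, 58.6, 58.3 and 57.1 FPKM in HFHG and at 73.5, 74.9, 74.9 and 68.8 FPKM in LG. Lamb2 (NCBI gene 16779, chromosome 9, 108479736 to 108490530 on the plus strand, 33 exons), the beta chain of the neuromuscular synapse and the kidney filter, was at 75.1, 80.5, 80.5 and 78.5 FPKM in HFHG and at 64.0, 64.3, 60.6 and 61.5 FPKM in LG. Neither gene had overlapping groups. Lamb1 was the more abundant beta chain in each LG library, and Lamb2 in each HFHG library. Lamb1 fell from 73.0 ± 2.91 to 58.0 ± 0.655 FPKM (SD, n = 4 each), and the log2 fold change was -0.33 (SE 0.0310, limma adjusted p = 1.03e-06). Lamb2 rose from 62.6 ± 1.84 to 78.7 ± 2.55 FPKM (SD, n = 4 each), and the log2 fold change was 0.33 (SE 0.0315, limma adjusted p = 1.27e-06).

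Since the beta chains went opposite ways, the sequence at the start of each gene is given for comparison, from RefSeq on GRCm38.p6, in windows of 250 bases before to 50 after the annotated start, read 5′ to 3′ on the strand of the gene. Capitals mark matches on either strand to the GC box (GGGCGG), the E box (CACGTG), the TATA box (TATAAA) and the CCAAT box. Of the 32851 promoter windows of this kind, 35.7% held a GC box, 7.15% the E box, 13.6% the TATA box and 37.4% the CCAAT box. The windows are chr12:31265043-31265342 for Lamb1 and chr9:108479612-108479911 for Lamb2, both on the plus strand.
Lamb1: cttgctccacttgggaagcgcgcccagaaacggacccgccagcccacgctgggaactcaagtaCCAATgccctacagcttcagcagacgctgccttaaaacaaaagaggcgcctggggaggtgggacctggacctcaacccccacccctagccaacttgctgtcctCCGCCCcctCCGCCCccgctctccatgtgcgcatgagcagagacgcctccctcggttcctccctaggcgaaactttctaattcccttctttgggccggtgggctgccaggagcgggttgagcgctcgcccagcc
Lamb2: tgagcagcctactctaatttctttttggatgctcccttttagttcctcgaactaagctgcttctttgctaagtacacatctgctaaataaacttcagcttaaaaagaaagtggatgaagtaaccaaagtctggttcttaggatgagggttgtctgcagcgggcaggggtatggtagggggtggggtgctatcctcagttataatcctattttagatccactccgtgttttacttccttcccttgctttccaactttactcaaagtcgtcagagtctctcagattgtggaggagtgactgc
The Lamb1 window held 2 GC boxes and 1 CCAAT box and was 63.7% G or C, and the Lamb2 window held no match to the 4 motifs and was 44% G or C, the median over all windows being 52.7%. A match describes the letters of the window, and binding was not measured. RefSeq promoter windows were found for 7 of the 10 genes (Nid1, Lama2, Lama5, Lamb1, Lamb2, Hspg2 and Agrn) and not for Nid2, Lama4 and Lamc1.

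Lamc1, the gamma chain shared by most laminins, did not pass the test. Lamc1 (NCBI gene 226519, chromosome 1, 153218922 to 153332786 on the minus strand, 28 exons) was at 49.5, 52.1, 51.3 and 53.1 FPKM in HFHG and at 49.2, 50.7, 49.6 and 46.8 FPKM in LG. The first HFHG library lay within the LG range and the other 3 above it. The log2 fold change was 0.07 (95% interval -0.0023 to 0.14, limma adjusted p = 0.0826), and without the first HFHG library it was 0.09 and passed (adjusted p = 0.0429). The interval leaves room for changes up to 0.14 on the log2 scale, less than the change of any of the 7 genes that were called.

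Since FPKM is per length, the chains could be summed within a class. Over all 5 alpha chains of the table, the sum was 51.5 ± 1.29 FPKM in HFHG and 64.0 ± 2.61 FPKM in LG (SD, n = 4 each), ranging from 50.0 to 52.8 and from 60.3 to 66.2 FPKM, with no overlap. The beta chains summed to 137 ± 2.91 and 136 ± 3.89 FPKM (SD, n = 4 each), with overlapping ranges. Within the beta chains, Lamb2 made up 56.4% to 57.9% of the sum in the HFHG libraries and 44.7% to 47.2% in the LG libraries. Within the alpha chains, Lama4 made up 85.8% on average in HFHG and 84.4% in LG, Lama2 9.37% and 12.1%, and Lama5 4.50% and 3.12%. None of these 4 shares had overlapping ranges. The length behind the FPKM of Lama2 was 11896 bases and that of Agrn 9093 bases, against 9614 and 7262 bases in their longest GENCODE M21 coding transcripts, so that the level of either gene beside other genes depends on the gene model.

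**Figure D2:**
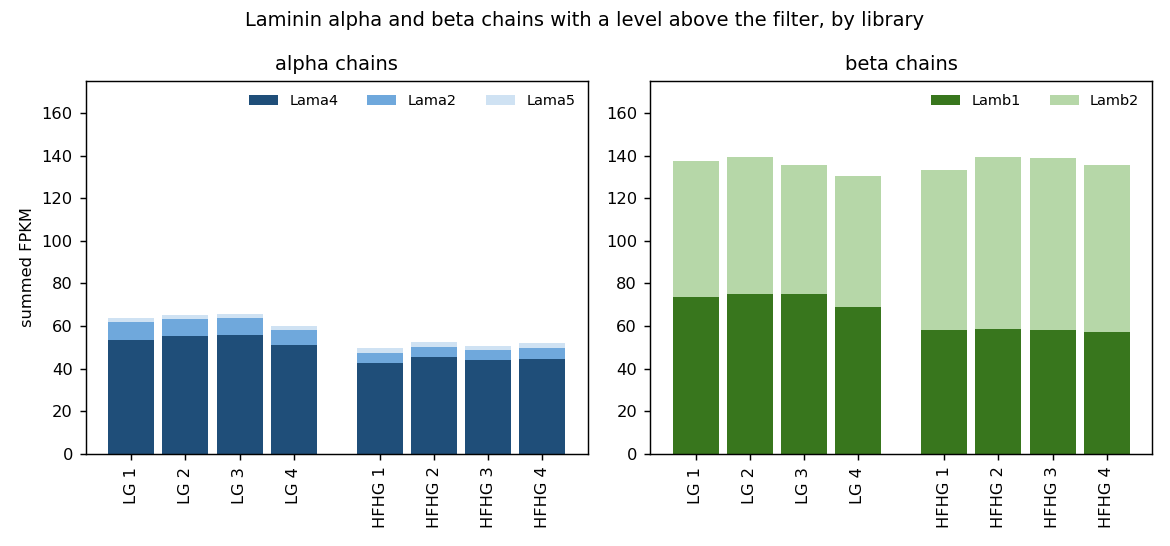
Summed FPKM (vertical axis, from 0) of the laminin alpha and beta chains that passed the filter, stacked by gene, with 1 bar per library. The Lamb2 block is taller and the Lamb1 block shorter in the HFHG bars at a beta sum that overlaps between the groups, and the alpha bars are shorter in HFHG (50.0 to 52.8 against 60.3 to 66.2 FPKM over all alpha chains).

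Among further laminin chains, Lama1, Lama3, Lamb3 and Lamc3 did not pass the filter. Lama3 and Lamb3, chains of epithelial laminins, stayed at or below 0.154 and 0.239 FPKM, with overlapping groups. Lama1, the alpha chain of early embryonic basement membranes, had 58 reads in all HFHG libraries together and 261 in the LG libraries, and ranged from 0.025 to 0.0508 and from 0.143 to 0.239 FPKM without overlap (exact two-sided permutation p = 0.0286, the smallest that 4 against 4 libraries allow). Lamc3 stayed at or below 0.186 FPKM with overlapping groups.

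The nidogens gave the widest contrast. Nid1 (NCBI gene 18073, chromosome 13, 13437551 to 13512269 on the plus strand, 20 exons) was the most abundant of the 10 genes on the FPKM scale, at 122, 129, 130.2 and 130.4 FPKM in HFHG and at 128, 134, 130.4 and 124 FPKM in LG. The ranges lay almost on top of each other. The means were 128 ± 4.16 and 129 ± 4.37 FPKM (SD, n = 4 each), and the log2 fold change of -0.01 (95% interval -0.08 to 0.06, limma adjusted p = 0.757) changed sign under other scalings.

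Nid2 (NCBI gene 18074, chromosome 14, 19751265 to 19811787 on the plus strand, 21 exons) encodes the second nidogen, which shares binding partners with the first. It was at 4.37, 3.79, 4.39 and 4.33 FPKM in HFHG and at 0.531, 0.818, 0.901 and 0.673 FPKM in LG. The lowest HFHG library, the second, was more than 4 times as high as the highest LG library. Behind these values stood 798, 655, 771 and 773 reads in HFHG and 89, 145, 156 and 117 reads in LG. The mean rose 5.77-fold, from 0.731 ± 0.163 to 4.22 ± 0.288 FPKM (SD, n = 4 each), and the log2 fold change was 2.40 (SE 0.131, 95% interval 2.11 to 2.68, limma adjusted p = 6.28e-09). The rise of Nid2 moved the share of Nid2 among the nidogens from 0.562% ± 0.115 to 3.20% ± 0.258 (SD, n = 4 each). With a pseudocount of 1 in place of 0.1 its log2 fold change was 1.60. The summed level of both nidogens was 132 ± 4.10 and 130 ± 4.47 FPKM, with overlapping ranges.

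The last exon of Nid2 shares 437 bases (chromosome 14, 19811351 to 19811787) with the end of Rtraf on the opposite strand, and whether the counting used strand is not given in the sources used here. Rtraf, an RNA transcription and transport factor, ranged from 65.1 to 68.5 FPKM in HFHG and from 66.8 to 77.0 FPKM in LG. Its log2 fold change of -0.09 did not pass the test (limma adjusted p = 0.0568). Rtraf had 3463 to 4140 reads in a library, against 89 to 798 for Nid2. Whether reads of Rtraf were counted for Nid2 was not tested. The antisense genes Gm48682 and Gm48084 reach into exons of Nid1 and Lama2.

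Perlecan and agrin, the heparan sulfate proteoglycans, both rose. Hspg2 (NCBI gene 15530, chromosome 4, 137468769 to 137570630 on the plus strand, 97 exons) was at 78.8, 87.6, 84.7 and 86.5 FPKM in HFHG and at 69.7, 69.7, 66.4 and 55.3 FPKM in LG. The groups were separate, and the fourth LG library was the lowest by far. The mean rose from 65.3 ± 6.80 to 84.4 ± 3.95 FPKM (SD, n = 4 each), and the log2 fold change was 0.38 (SE 0.0643, limma adjusted p = 2.26e-04), which was 0.30 without the fourth LG library (adjusted p = 3.12e-05).

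Agrn (NCBI gene 11603, chromosome 4, 156165290 to 156197488 on the minus strand, 38 exons), best known as the nerve-derived organiser of the neuromuscular junction, was at 34.2, 34.9, 34.4 and 34.4 FPKM in HFHG and at 29.0, 29.9, 27.7 and 27.7 FPKM in LG. The HFHG libraries lay within 1 FPKM of each other and above all LG libraries. The mean rose from 28.6 ± 1.06 to 34.5 ± 0.311 FPKM (SD, n = 4 each), and the log2 fold change was 0.27 (SE 0.0327, limma adjusted p = 1.08e-05). Gene-level FPKM do not separate the splice forms of agrin that differ in activity at the synapse.

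The promoter windows of both proteoglycan genes are shown since these genes rose together, with capitals as above. They are chr4:137468553-137468852 on the plus strand for Hspg2 and chr4:156197439-156197738 on the minus strand for the upstream of the 2 Agrn windows.
Hspg2: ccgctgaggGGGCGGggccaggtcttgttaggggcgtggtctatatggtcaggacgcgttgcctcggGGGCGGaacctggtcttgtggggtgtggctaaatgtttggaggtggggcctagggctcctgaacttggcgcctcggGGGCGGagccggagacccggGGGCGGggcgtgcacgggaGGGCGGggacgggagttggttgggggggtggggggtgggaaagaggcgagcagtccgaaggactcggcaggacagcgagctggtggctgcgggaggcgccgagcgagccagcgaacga
Agrn: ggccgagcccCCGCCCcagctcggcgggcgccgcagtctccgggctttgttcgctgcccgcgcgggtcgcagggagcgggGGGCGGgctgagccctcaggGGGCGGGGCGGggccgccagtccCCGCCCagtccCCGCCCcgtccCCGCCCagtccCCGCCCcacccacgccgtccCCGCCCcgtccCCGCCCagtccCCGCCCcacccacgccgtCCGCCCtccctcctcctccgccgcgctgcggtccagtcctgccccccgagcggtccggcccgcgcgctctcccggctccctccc
The Hspg2 window held 5 GC boxes and was 70.3% G or C, and the Agrn window held 12 GC boxes, some overlapping, and was 83.3% G or C. Neither held the E box, the TATA box or the CCAAT box. The windows of Lama5, which did not pass the test, and of Lama2, which fell, held 4 and 1 GC boxes. A link between the motifs and the changes was not tested.

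**Figure D3:**
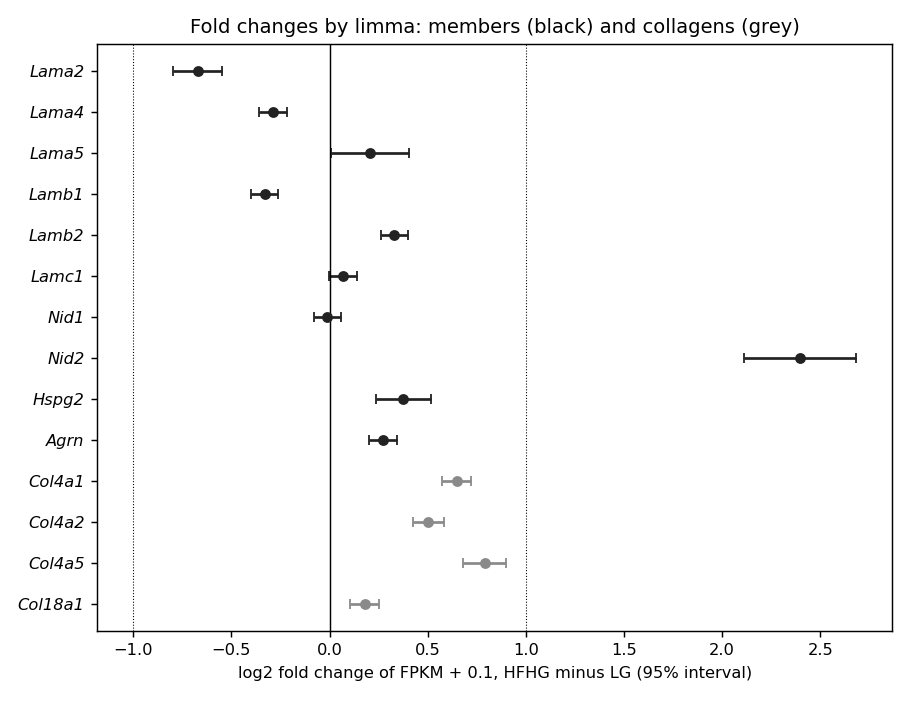
Log2 fold change (HFHG minus LG, FPKM + 0.1) by limma with its 95% interval for the 10 basement membrane genes (black) and for the collagens that passed the filter (grey), with dotted lines at a log2 fold change of 1 in either direction. Nid2 (2.40) is the single gene of those drawn beyond the dotted lines, Lama2, Lama4 and Lamb1 lie left of 0, and the 4 collagens lie right of 0.

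The ratio of 2 genes within a library does not depend on how libraries are scaled, and 5 such ratios were compared. The log2 ratio of Lamb2 to Lamb1 was 0.37, 0.46, 0.46 and 0.46 in HFHG and -0.20, -0.22, -0.31 and -0.16 in LG, a difference of 0.66. The sign of the ratio thus turned between the groups, and the first HFHG library was the lowest of its group. The log2 ratio of Lama4 to Lama2 was 3.15 to 3.25 in HFHG and 2.70 to 2.86 in LG, a difference of 0.39, and that of Lama5 to Lama2 was -1.19 to -0.93 and -2.03 to -1.82, a difference of 0.90. The log2 ratio of Nid2 to Nid1 was -5.09 to -4.80 in HFHG and -7.91 to -7.18 in LG, a difference of 2.57. For each of these 4 ratios the groups did not overlap (exact two-sided permutation p = 0.0286, the smallest that 4 against 4 libraries allow, and 0.0357 adjusted over the 5 ratios). The ratios use the FPKM already compared gene by gene above, so their tests are not independent of those results. The log2 ratio of Agrn to Hspg2 was -1.33 to -1.20 in HFHG and -1.27 to -0.997 in LG, with overlap, and its difference of -0.10 did not pass the test (exact permutation p = 0.143). Without the fourth LG library that difference was -0.04.

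**Figure D4:**
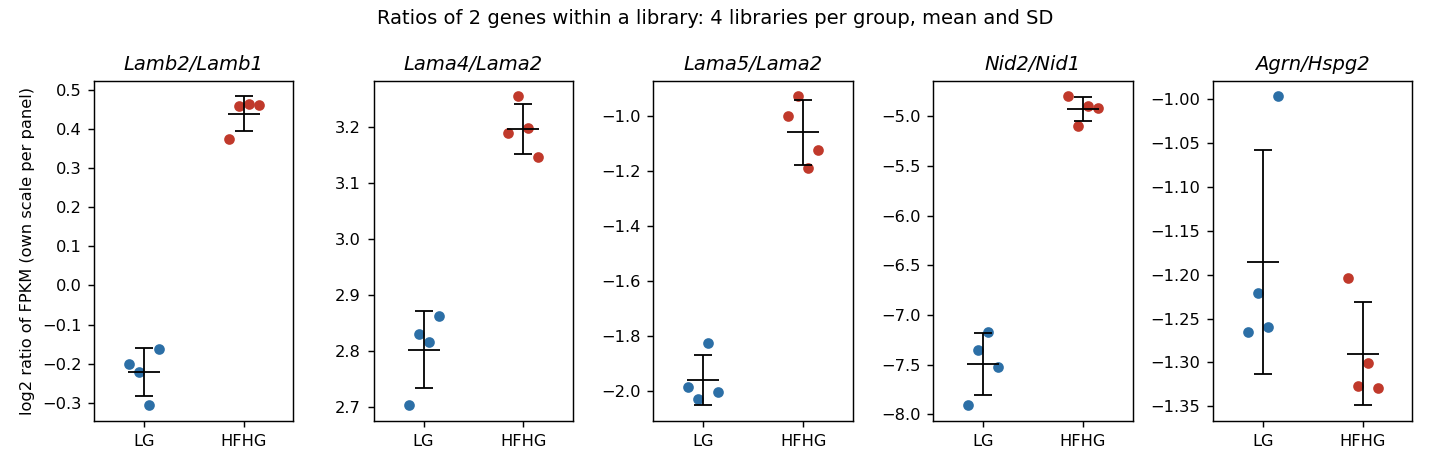
Log2 ratio of the FPKM of 2 genes in the same library (vertical axes, each on its own scale) in the 4 LG (blue) and 4 HFHG (red) libraries, with the mean and SD in black. The groups are separate for Lamb2/Lamb1, Lama4/Lama2, Lama5/Lama2 and Nid2/Nid1 and overlap for Agrn/Hspg2, where the fourth LG library stands highest at -0.997.

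Type IV collagen forms the network that nidogens and perlecan join to laminin, and the collagens of the basement membrane that passed the filter all rose, 4 of 4 tested among 8 listed, where 34% of all genes tested were called higher. The fourth LG library was the lowest LG library for Col4a1 and Col4a2. Col4a1 rose from 63.3 ± 2.99 to 99.0 ± 1.28 FPKM and Col4a2 from 72.4 ± 4.05 to 103 ± 1.43 FPKM (SD, n = 4 each). Their log2 fold changes were 0.65 (SE 0.0333, limma adjusted p = 3.51e-09) and 0.50 (SE 0.0367, limma adjusted p = 9.46e-08). Col4a5 rose from 10.1 to 17.5 FPKM, a log2 fold change of 0.79, and Col18a1, the precursor of endostatin, from 18.03 to 20.4 FPKM, a log2 fold change of 0.18 (limma adjusted p = 2.80e-08 and 5.34e-04). Col4a3 and Col4a4, at 64 and 35 reads over the LG libraries, had overlapping groups, while Col4a6 (108 against 57 reads) and Col15a1 (166 against 48 reads) were under the filter and higher in each HFHG library. Of 6 mural cell markers, Notch3 and Cspg4 were called higher in HFHG, as were the 4 collagens, Hspg2 and Nid2. The other 4 mural markers were under the filter, and Kcnj8 had 4 reads in HFHG and 17 in LG. The endothelial marker Tek, 2 of 3 tested Schwann cell markers and 7 of 9 tendon markers were called higher too. The part of any of these cells in the rise of the collagens was not tested.

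Of 13 listed linkers and other basement membrane proteins, 7 were tested, of which 5 rose and 2 fell, against 34% and 30.8% of all genes tested, with a median log2 fold change of 0.68. Fbln1, a fibulin that binds laminin and nidogen, rose from 21.6 to 67.6 FPKM (log2 fold change 1.64). Ntn4, a netrin that caps laminin networks, rose from 2.37 to 6.02 FPKM (1.31), and Sparc, a collagen-binding protein, from 873 to 1570.2 FPKM (0.85). Fbln2, a further fibulin that binds nidogen and is named here after its values were seen, fell from 829 to 741 FPKM (-0.16). Under quantile normalization this direction turned and Fbln2 was called higher (0.18), so its direction depends on the scaling.

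Of 12 listed receptors for laminin and agrin, 10 were tested. Itgb4 passed the filter through the HFHG libraries alone, so that its difference is fixed by the filter, and of the other 9 receptors 5 rose, 3 fell and 1 did not pass, against 34% and 30.8% of all genes tested, with a median log2 fold change of 0.63. The 3 with the largest changes at the pseudocount of 0.1 were Itga1, a collagen and laminin integrin chain, Bcam, a receptor for the laminin alpha-5 chain, and Itgb4, the integrin partner of the alpha-6 chain. Itga1 rose from 0.755 to 1.63 FPKM (log2 fold change 1.02) and Bcam from 2.001 to 3.97 FPKM (0.94), and Itgb4 was 0.343 to 0.443 FPKM in LG and 0.691 to 0.833 FPKM in HFHG (0.78). With a pseudocount of 1 the log2 fold changes of Itga1 and Itgb4 were 0.58 and 0.33, below the 0.70 of Itga7. The following receptors were chosen after their values were seen. The laminin integrin chain Itga7 rose from 9.07 to 15.4 FPKM (0.76) while Itga6 fell from 7.47 to 5.05 FPKM (-0.55). Their common partner Itgb1 fell from 482 to 405 FPKM (-0.25), a call lost under quantile normalization (limma adjusted p = 0.094). Itga3 ranged from 0.880 to 1.09 FPKM in HFHG and from 0.816 to 1.20 FPKM in LG and did not pass the test. Dystroglycan (Dag1), the receptor of laminin and agrin, was 62.8 FPKM in LG and 59.8 FPKM in HFHG, a log2 fold change of -0.07 (limma adjusted p = 0.0235) whose call was lost under 7 of 18 alternatives. Lrp4, the agrin receptor of muscle, rose from 0.807 to 1.30 FPKM (0.63, or 0.35 with a pseudocount of 1).

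Dystroglycan binds laminin and agrin through a sugar chain, and of the 12 listed enzymes that build it 11 were tested, of which 2 rose, 4 fell and 5 did not pass, against 34% and 30.8% of all genes tested called higher and lower, with a median log2 fold change of -0.10. The glycosyltransferases Pomgnt2 and B4gat1 rose, Pomgnt2 from 6.96 to 10.1 FPKM (log2 fold change 0.54) and B4gat1 from 26.1 to 32.0 FPKM (0.30). The heparan sulfate chains of perlecan and agrin are built and edited by another set, of which 21 of 22 were tested, 11 rose, 6 fell and 4 did not pass, beside the same shares of all genes, with a median log2 fold change of 0.12. Sulf2, an extracellular sulfatase that trims heparan sulfate, rose from 16.5 to 31.8 FPKM (0.94) and the sulfotransferase Hs6st2 from 2.17 to 3.43 FPKM (0.64). The sulfotransferase Hs3st1 fell from 1.95 to 1.05 FPKM (-0.83, or -0.52 with a pseudocount of 1). Ext1 and Ext2, the enzymes that lengthen the chain, were named after their values were seen and rose from 108 to 147 FPKM (0.45) and from 30.4 to 39.6 FPKM (0.38).

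Of 10 listed proteases that cut basement membrane proteins, 9 were tested, of which 4 rose and 5 fell, against 34% and 30.8% of all genes tested, with a median log2 fold change of -0.18. Adamts1, a secreted metalloprotease, rose from 36.1 to 65.5 FPKM (log2 fold change 0.86), and Mmp3, a matrix metalloprotease, from 1491 to 2243 FPKM (0.59). Ctsb, the lysosomal protease cathepsin B, fell from 1839 to 1219 FPKM (-0.59). Each of these linkers, receptors, enzymes and proteases said to rise or fall passed the limma test at an adjusted p below 0.05.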

How the data were processed

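Libraries were made from total RNA of 4 HFHG and 4 low glucose (LG) TSC samples with a stranded mRNA kit, and groups and replicate numbers came from the labels. The authors deposited FPKM values, read counts normalised to gene length and to the reads of the library, for 19301 genes without pooling replicates. The submitters' processing notes name HISAT2 2.1.0 and mm10. The counting program, its strand setting, the annotation and any filter are not given in the sources used here. The table also holds the authors' gene annotation, and 0 per-sample columns were left unused.

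The 10 genes and the gene lists were chosen with earlier results of these data known. Of the lists, further laminins, the collagens and the 3 genes with the largest change past the test and without overlap per list were named, and Rtraf and 9 more genes were named after their values were seen. Some results of these lists are not reported here. Genes with FPKM of at least 0.5 in at least 4 libraries were tested (11710). limma 3.58.1 in R 4.3.3 was fitted to log2(FPKM + 0.1) with eBayes and an intensity trend, without covariates. Fold changes are on that scale and understate those of genes near the pseudocount. An exact two-sided permutation test (70 arrangements) was used for single genes and ratios. The scripts were tested on simulated data. Reads behind the FPKM were recovered as whole numbers for 100% of the genes (relative tolerance 1e-06), from library totals between 34308108 and 37362725. Positions came from GENCODE M21 (GRCm38), and promoters from RefSeq. The alternatives were other pseudocounts, filters and scalings, a replicate block, robust eBayes, each library left out and, added after the data were seen, voom on the recovered reads.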

Additional observations from a re-analysis of the deposited data

Results flagged for a closer look

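In a group of 4 libraries, the highest or lowest value was called outlying when its gap to the nearest other value, as a share of the range, exceeded Dixon's 95% critical value, and chance does this in about 1 in 20 groups. This was so for 11 of 104 groups of the genes and ratios named here. Nid1 was 122 FPKM in the first HFHG library against 129 to 130.4 FPKM in the others, and Nid2 was 3.79 FPKM in the second HFHG library against 4.33 to 4.39 FPKM. The log2 ratio of Lamb2 to Lamb1 was 0.37 in the first HFHG library against 0.46 in the other 3, and that of Agrn to Hspg2 was -0.997 in the fourth LG library against -1.27 to -1.22. In the same library Ctsb was 1881 FPKM against 1822 to 1828 FPKM, Itgb1 467 FPKM against 485 to 489 FPKM, and Dag1 61.3 FPKM against 63.1 to 63.4 FPKM. In the first LG library Lamb3 was 0.0747 FPKM against 0.0257 to 0.0329 FPKM, and Col4a6 0.0819 FPKM against 0.0498 to 0.0542 FPKM. Itga1 was 1.79 FPKM in the first HFHG library against 1.55 to 1.59 FPKM, and Lrp4 0.960 FPKM in the third LG library against 0.751 to 0.766 FPKM.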

How the results depend on the processing

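The 7 calls among the 10 genes kept their direction and their side of the threshold under all 18 alternatives run, with 4 to 6 genes higher and 3 lower. The genes added were Lama5 and Lamc1, each past the threshold in 4 of the 18. Both passed when each library was rescaled to one FPKM sum (Lama5 0.26, Lamc1 0.13) and with voom on the recovered reads, which was added after the data were seen (0.22 and 0.07), and Lamc1 with quantile normalization (0.09). Nid1, not called under any of them, had a log2 fold change of 0.048 under that rescaling, 0.045 with quantile normalization, and 0.0119 and 0.00685 without the first HFHG and the second LG library, within -0.032 to 0.0119 over the libraries left out in turn. Among the other genes, Itga3 was 0.000391 without the first LG library, within -0.17 to 0.000391 over the libraries left out in turn. Fbln2, called lower in the main fit, was 0.18 with quantile normalization and called higher there. The cause was not tested. Over all genes, 3983 were higher and 3609 lower, 4682 and 3002 under the rescaling, and 3548 and 4053 with median-ratio scaling.

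No pairing by replicate number was seen, as the deviations of HFHG and LG libraries of the same number correlated at -0.021, -0.0096, -0.0056 and -0.074. Whether the libraries were paired by design is not given in the sources used here. With the replicate number as a block, 3841 genes were higher and 3501 lower, and no call among the 10 genes changed. For the ratios Lamb2/Lamb1, Lama4/Lama2, Lama5/Lama2 and Nid2/Nid1 the differences of 0.66, 0.39, 0.90 and 2.57 then had an exact sign-flip p of 0.125, the smallest that 4 pairs allow. Depth limits Lama1, Lama3, Lamb3, Lamc3, Col4a3, Col4a4, Col4a6 and Col15a1, which were under the filter.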
